A study of Mus musculus with 8 samples.

Results

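VLMC-Pia is the class of vascular and leptomeningeal cells (VLMC) that the study assigned to the pia, the innermost membrane over the cortex. Its members were all nuclei that the deposited table of cells assigns to this class, 1041 of 44021 nuclei or 2.36%. The other 2 classes of VLMC, named VLMC-Col15a1 and VLMC-Slc16a11 for a marker gene each, held 2434 and 765 nuclei and served as the comparison within each library. The table gives for each nucleus its library, class, map position, number of unique molecular identifiers (UMIs, each counting 1 captured RNA molecule), number of detected genes and mitochondrial share. It holds no expression values, so the class names could not be checked against Col1a2 and Slc6a13, the genes that mark these cells, and the levels of the deleted genes were not analysed here.

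The leptomeninges are the arachnoid and the pia, thin sheets of fibroblast-like cells that secrete the collagens of the basement membrane on which astrocyte endfeet rest. Pial cells line the brain surface and follow the larger vessels for a short way as these enter the cortex, and related fibroblasts lie around vessels inside the tissue. In early postnatal life the meninges also supply the cortex with signals for its growth, and the membrane is still maturing at the age studied here. Col1a2 encodes a chain of collagen I, the main fibrillar collagen of fibroblasts. Slc6a13 encodes a transporter of GABA and taurine that is known from leptomeningeal cells. Col15a1 encodes a collagen of basement membranes and Slc16a11 a carrier of the monocarboxylate family.

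Nuclei came from the visual cortex of C57BL/6J mice at postnatal day 14 and were sorted as negative for NeuN, a protein of neuronal nuclei, so neurons were largely removed and every share below is a share of NeuN-negative nuclei. There were 8 libraries in 4 groups of 2, each group with 1 library of male and 1 of female mice, and each library pooled the tissue of 2 mice. VGlut2 WT mice carried floxed alleles of VGlut2 (Slc17a6, a vesicular glutamate transporter) without Cre, labelled VGlut2 f/f. VGlut2 cKO mice carried the same alleles with Cre expressed from the RORα gene, labelled VGlut2 f/f;ROR acre, which removes the transporter from thalamic neurons that project to the cortex. Ip3r2 WT and Ip3r2 KO mice had or lacked Ip3r2 (Itpr2), the receptor that releases calcium from intracellular stores in astrocytes, and the KO is a germline deletion, present in all cells. Ip3r2 WT mice were littermates or other C57BL/6J mice bred in the same colony. The comparisons ask how VLMC-Pia nuclei differed with the loss of thalamic glutamate release or of this calcium release, and between the mouse models.

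Sequencing yielded between 4767 and 5920 nuclei per library, with a library total between 8824112 and 12948023 UMIs. Median UMIs over all nuclei of a library lay between 1343 and 2242 and were higher in every Ip3r2 library than in every VGlut2 library. The margin was narrow, at 1882 in the male Ip3r2 WT library against 1876 in the female VGlut2 cKO library. Per the study's methods, 1 WT and 1 mutant library of a model were carried from nuclear isolation to cDNA together, in 4 separate procedures, so each model had its own 2 procedures, and mouse model, mouse line and procedure cannot be told apart. The methods do not state the sex of each pair, and if a pair was of 1 sex, sex and procedure within a model cannot be told apart either. The tests below treat libraries of a shared procedure as independent. A barcode was found in more than 1 library for 475 nuclei (1.08%), among them 16 of the VLMC-Pia nuclei (1.54%), and 0 barcodes were VLMC-Pia in 2 libraries. Replicates are libraries of 2 pooled mice, so p-values rest on the spread between libraries. In limma that spread was pooled, in part or in full, over classes of the same libraries as if these were independent.

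VLMC-Pia nuclei were found in every library, from 78 to 169 nuclei each. They took 2.22% and 1.46% of the nuclei in the male and female VGlut2 WT libraries, and 2.18% and 1.69% in those of VGlut2 cKO. They took 2.58% and 3.14% in the male and female Ip3r2 WT libraries, and 2.98% and 2.73% in those of Ip3r2 KO. The 4 VGlut2 libraries were the lowest and the 4 Ip3r2 libraries the highest, with no overlap between the models, while WT and mutant libraries overlapped within each model. With a 95% Wilson interval, which covers counting error only, the lowest share reached from 1.17% to 1.81% and the highest from 2.71% to 3.65%. Both female VGlut2 libraries were below both male VGlut2 libraries, and in the Ip3r2 model the female library was higher in WT and lower in KO.

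**Figure D1:**
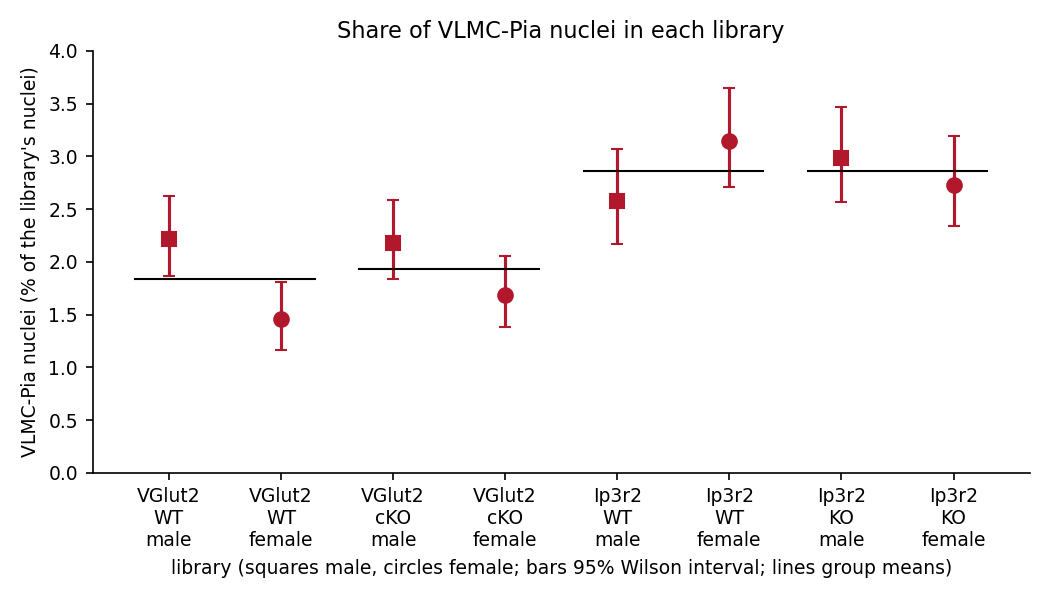
Share of VLMC-Pia nuclei among all nuclei of each library, in percent, with 95% Wilson intervals as bars, group means as lines, squares for male and circles for female libraries. The 4 VGlut2 libraries sit between 1.46% and 2.22%, and the 4 Ip3r2 libraries between 2.58% and 3.14%.

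Averaged over the 8 libraries, VLMC-Pia took 2.37% ± 0.599 (SD, n = 8) of the nuclei and stood seventh in order among 17 classes, with the 4 astrocyte groups joined as 1 class. Its neighbours in that order did not differ from it beyond their spread. Endothelial cells (EC), which line the vessels, took 2.43% ± 0.605 and were below VLMC-Pia in 5 of 8 libraries, and mature oligodendrocytes (MOL), the myelinating cells, took 2.36% ± 0.776 and were also below it in 5 of 8. Pericytes (PC), the mural cells of capillaries, took 1.66% ± 0.290.

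The share of VLMC-Pia nuclei did not differ detectably between mutant and WT in either model. It was 1.93% ± 0.346 in VGlut2 cKO and 1.84% ± 0.538 in VGlut2 WT, and 2.86% ± 0.178 in Ip3r2 KO and 2.86% ± 0.399 in Ip3r2 WT (SD, n = 2 libraries each). In a limma fit to the log2 odds of all 17 classes, the difference was 0.10 for VGlut2 cKO minus WT (95% interval -0.57 to 0.76, adjusted p = 0.980) and 0.00 for Ip3r2 KO minus WT (-0.66 to 0.66, adjusted p = 0.994). Both intervals include an increase as large as the difference between the models given next, so an increase of that size was not detectable with 2 libraries per group. Within the same sex, the ratio of cKO to WT odds was 0.983 in males and 1.16 in females. That of KO to WT was 1.16 in males and 0.865 in females. The sexes thus lay on opposite sides of 1 in each model, with 1 library per sex and group. The male VGlut2 libraries did not differ beyond counting error, with 95% Wilson intervals of 1.87% to 2.63% in WT and 1.84% to 2.58% in cKO. Subtracting the Ip3r2 from the VGlut2 difference left 0.09 (-0.84 to 1.03, adjusted p = 0.959). In all 3 of these contrasts limma called 0 of 17 classes, or 0%, with 0, 1 and 1 classes at an unadjusted p under 0.05, and edgeR and DESeq2 also called 0.

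Between the models the share did not pass the planned test, although the libraries did not overlap. It was 2.86% ± 0.252 in the Ip3r2 and 1.89% ± 0.374 in the VGlut2 libraries (SD, n = 4 each), a 1.55-fold ratio of odds. In limma over all classes the log2 difference was 0.63 (0.16 to 1.10), with an unadjusted p of 0.0124 that did not pass adjustment (adjusted p = 0.106). There limma called 0% of the 17 classes, with 4 at an unadjusted p under 0.05, and edgeR and DESeq2 called 0. The other VLMC classes were higher in the same libraries, at 6.53% ± 1.12 against 4.60% ± 0.251 for VLMC-Col15a1 and 2.10% ± 0.282 against 1.39% ± 0.158 for VLMC-Slc16a11, with no overlap in either. Separation of the models was not counted over the other classes, so it cannot be read as particular to these 3. Since all 3 classes separated by model, no correlation between them across libraries was computed. How much of the membrane each dissection kept was not measured here.

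Set against its vascular neighbours only, VLMC-Pia was close to level between the models. Of the EC, PC and VLMC nuclei of a library, it took 18.8% and 13.6% in the male and female VGlut2 WT libraries and 18.5% and 14.6% in those of VGlut2 cKO. It took 16.2% and 22.5% in the male and female Ip3r2 WT libraries and 17.5% and 15.9% in those of Ip3r2 KO. The female Ip3r2 WT library was the highest and the female VGlut2 WT library the lowest, and both models and both genotypes of each model overlapped. The models averaged 18.0% ± 3.06 for Ip3r2 and 16.4% ± 2.67 for VGlut2 (SD, n = 4), and the log2 difference was 0.16 (-0.22 to 0.55, limma adjusted p = 0.623). For mutant minus WT the log2 differences were 0.04 (-0.51 to 0.59, adjusted p = 0.957) in VGlut2 and -0.24 (-0.79 to 0.30, adjusted p = 0.607) in Ip3r2, and 0.28 (-0.49 to 1.06, adjusted p = 0.826) for their difference. In each of these contrasts limma called 0% of the 5 vascular and leptomeningeal classes, with 0 at an unadjusted p under 0.05, and edgeR and DESeq2 called 0.

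Among VLMC nuclei alone, VLMC-Pia was the middle class in all 8 libraries, below VLMC-Col15a1 and above VLMC-Slc16a11. Over all libraries it held 24.6% of 4240 VLMC nuclei, VLMC-Col15a1 57.4% and VLMC-Slc16a11 18.0%. By library its share of VLMC nuclei ran from 20.1% in the female VGlut2 WT library, over a median of 24.5%, to 30.2% in the female Ip3r2 WT library. It had 0.423 times as many nuclei as VLMC-Col15a1 (0.324 to 0.604 by library) and 1.36 times as many as VLMC-Slc16a11 (1.05 to 1.74). Each order held in 8 of 8 libraries, and an exact two-sided sign-flip test of the 8 within-library ratios gave p = 0.00781 for each, the smallest it can give (adjusted p = 0.00868 over 10 tests). The lead over VLMC-Slc16a11 was thinnest in the female VGlut2 cKO library, with 96 against 91 nuclei, and widest in the male VGlut2 cKO library, with 129 against 74. Neither ratio differed detectably between the models, at 0.442 in Ip3r2 against 0.404 in VGlut2 libraries for VLMC-Col15a1 (exact permutation, adjusted p = 0.750 over 10 tests) and 1.37 against 1.34 for VLMC-Slc16a11 (adjusted p = 0.914).

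**Figure D2:**
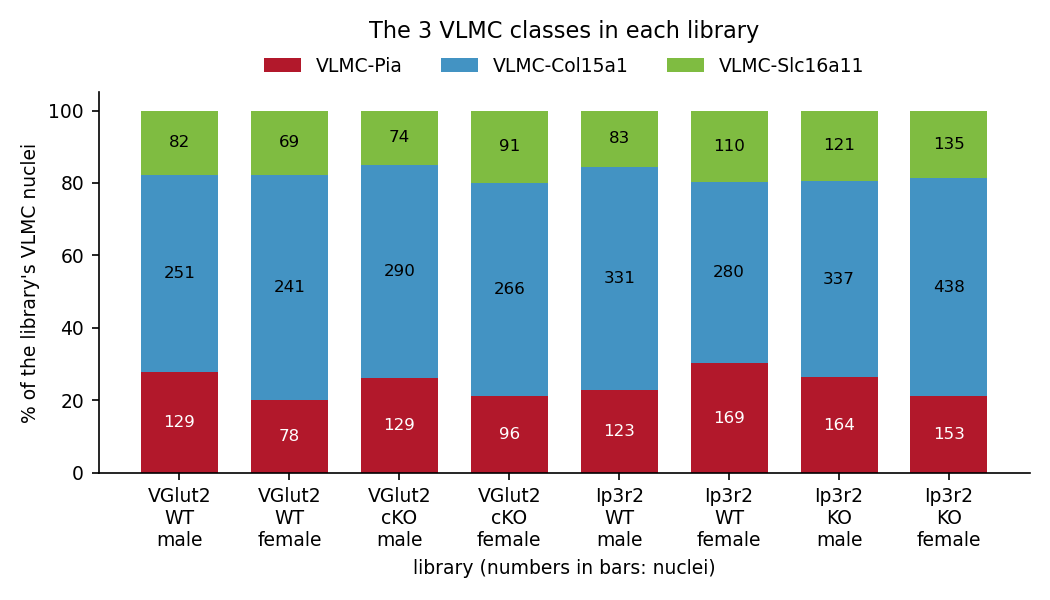
Share of the 3 VLMC classes among the VLMC nuclei of each library, in percent, with the number of nuclei written in each bar. VLMC-Pia takes 20.1% to 30.2% and is the middle class in all 8 libraries.

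VLMC-Pia nuclei were the deepest of the 3 classes. Their median UMIs per nucleus were 2060 and 2249.5 in the male and female VGlut2 WT libraries and 2260 and 2676.5 in those of VGlut2 cKO. They were 2810 and 3144 in the male and female Ip3r2 WT libraries and 3050.5 and 3107 in those of Ip3r2 KO. All 4 Ip3r2 libraries were above all 4 VGlut2 libraries, both VGlut2 cKO libraries were above both VGlut2 WT libraries by a narrow margin, and the Ip3r2 groups overlapped. Separation of the VGlut2 groups in UMIs was not counted over the other classes. The median number of detected genes followed the same order between the models, with 1165, 1278.5, 1269 and 1481.5 genes in the VGlut2 libraries and 1541, 1643, 1615.5 and 1638 in the Ip3r2 libraries, in the same order as above. Here the groups within the VGlut2 model overlapped, since the male cKO library was below the female WT library.

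The average over libraries was 2670 ± 430 UMIs and 1454 ± 190 genes for VLMC-Pia (SD, n = 8), against 1547 ± 317 UMIs and 958 ± 159 genes for VLMC-Col15a1 and 2360 ± 448 UMIs and 1213 ± 167 genes for VLMC-Slc16a11. Within a library VLMC-Pia had 1.74 times the UMIs of VLMC-Col15a1 (1.59 to 2.09) and 1.53 times its genes (1.399 to 1.75). Against VLMC-Slc16a11 it had 1.14 times the UMIs (1.04 to 1.27) and 1.20 times the genes (1.14 to 1.29). All 4 differences held in 8 of 8 libraries (exact sign-flip test, p = 0.00781 and adjusted p = 0.00868 for each). None of these 4 ratios differed detectably between the models (exact permutation, adjusted p from 0.571 to 0.750). The other vascular classes were shallower still, with 1356 ± 310 UMIs in EC and 1178 ± 250 in PC. VLMC-Pia nuclei were 2.36% of all nuclei and held 3.34% of all UMIs.

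**Figure D3:**
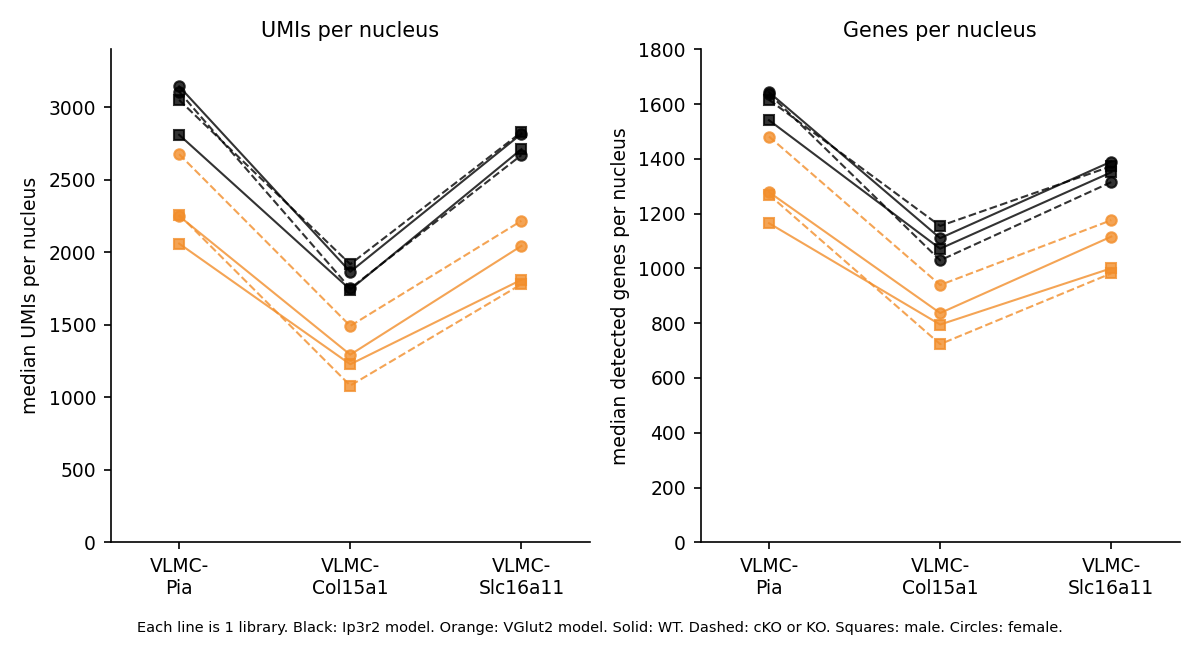
Median UMIs per nucleus (left) and median detected genes per nucleus (right) of the 3 VLMC classes, with each library as 1 line, black for the Ip3r2 and orange for the VGlut2 model, solid for WT and dashed for cKO or KO. VLMC-Pia is the highest class in all 8 libraries on both axes, from 2060 to 3144 UMIs and from 1165 to 1643 genes.

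Depth was ranked over the 15 classes that had 20 or more nuclei in each library, and 2 of them had a higher mean than VLMC-Pia in UMIs and in genes. Mitotic oligodendrocyte precursor cells (M-OPC), the dividing precursors of oligodendrocytes, stood next above it with 2799 ± 477 UMIs and were above VLMC-Pia in 5 of 8 libraries. Newly formed oligodendrocytes (NFOL) stood next below with 2612 ± 395 UMIs and were below VLMC-Pia in 5 of 8. In UMIs neither neighbour differed from VLMC-Pia beyond the spread between libraries. In genes M-OPC had 1506 ± 179, above VLMC-Pia in 6 of 8 libraries, and NFOL 1351 ± 165, below it in 7 of 8. The other 2 classes, left out of this order for a library with few nuclei, were myelin-forming oligodendrocytes (MFOL, 19 nuclei in 1 library) and NeuronLike-Slc17a6 (15 nuclei in 1 library). MFOL had 3139 to 4820 UMIs by library and was above VLMC-Pia in UMIs in 8 of 8 libraries and in genes in 6 of 8, and NeuronLike-Slc17a6 was above it in 3 of 8 in each.

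Single VLMC-Pia nuclei ranged from 246 to 8501 UMIs and from 212 to 3215 genes. The coefficient of variation of UMIs within a library was 30.6% ± 2.27 (SD, n = 8), and 10 of the 1041 nuclei had more than 2 times the median UMIs of their class in their library. Few VLMC-Pia nuclei were shallow, since 7 of 1041 (0.672%) had fewer than 500 genes. In the classes compared this was 3.82% for VLMC-Col15a1, 1.31% for VLMC-Slc16a11, 4.12% for EC and 10.6% for PC.

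A deeper nucleus shows more genes, so genes were also compared at like depth. Among nuclei of 1500 to 2500 UMIs, VLMC-Pia had 1230 ± 57.1 genes, VLMC-Col15a1 1088 ± 50.9 and VLMC-Slc16a11 1116 ± 43.0 (SD, n = 8 libraries of median values). VLMC-Pia was higher by 13.1% and by 10.2%, in 8 of 8 libraries each (exact sign-flip test, p = 0.00781, adjusted p = 0.00868). The window did not make the classes equal in depth, however. The median UMIs inside it were 1969 to 2246 by library for VLMC-Pia, 1671 to 1915 for VLMC-Col15a1 and 1819 to 2221.5 for VLMC-Slc16a11.

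A second measure, added after the data were seen, predicted the genes of a nucleus with 2000 UMIs from a line fitted in each library on the log2 scale to nuclei of 1000 to 4000 UMIs. VLMC-Pia then had 1187 ± 23.1 genes and VLMC-Slc16a11 1084 ± 21.8, a 1.10-fold ratio that held in 8 of 8 libraries (p = 0.00781, adjusted p = 0.00977, exact sign-flip test). VLMC-Col15a1 had 1164 ± 16.0 genes, a 1.02-fold ratio that held in 7 of 8 libraries (p = 0.0234, adjusted p = 0.0260, exact sign-flip test), the female Ip3r2 WT library being the exception with 1161 genes in VLMC-Pia and 1165 in VLMC-Col15a1. The lead over VLMC-Slc16a11 thus had almost the same size by both measures, while the lead over VLMC-Col15a1 shrank from 1.13-fold in the window to 1.02-fold at an equal number of UMIs. By the second measure the genes of VLMC-Pia were 1193 ± 30.3 in the Ip3r2 and 1180 ± 14.7 in the VGlut2 libraries (SD, n = 4), which overlapped. In the window VLMC-Pia had the most genes of the 6 classes with 20 or more nuclei there in each library. At 2000 UMIs 14 classes had that many nuclei in the fitted range, and VLMC-Pia stood seventh, between M-OPC with 1193 ± 34.4 genes, above it in 4 of 8 libraries, and VLMC-Col15a1. EC had 1227 ± 16.8 genes and were above VLMC-Pia in 7 of 8 libraries, and PC had 1150 ± 27.8 and were below it in 7 of 8.

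**Figure D4:**
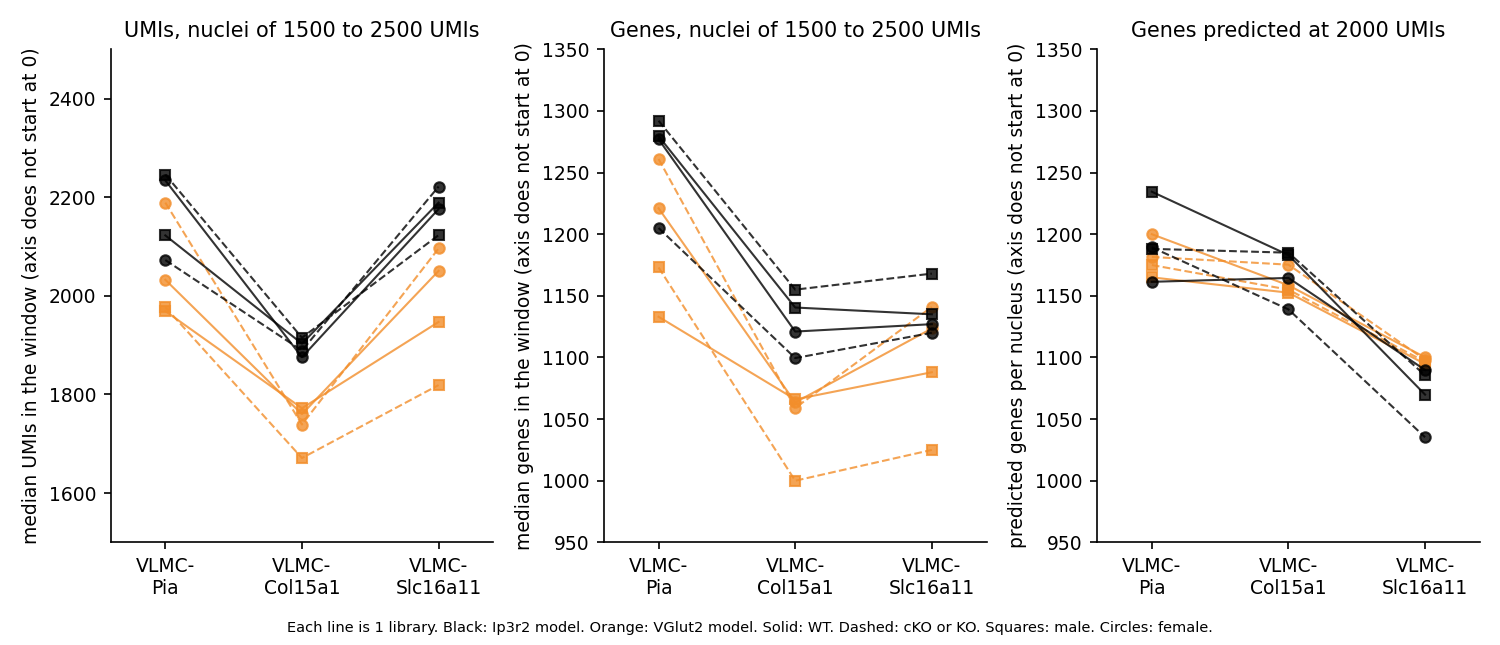
Median UMIs (left) and genes (middle) of nuclei with 1500 to 2500 UMIs, and genes predicted at 2000 UMIs (right), for the 3 VLMC classes, 1 line per library, on axes that do not start at 0. VLMC-Pia and VLMC-Col15a1 lie apart in the window and close together at 2000 UMIs (1187 and 1164 genes on average), while VLMC-Slc16a11 lies below both at 2000 UMIs (1084 genes).

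Neither mutation changed the depth of VLMC-Pia nuclei past the test. Median UMIs differed on the log2 scale by 0.19 for VGlut2 cKO minus WT (95% interval -0.20 to 0.58, limma adjusted p = 0.960) and by 0.05 for Ip3r2 KO minus WT (-0.34 to 0.44, adjusted p = 0.99995), and the difference between the 2 was 0.14 (-0.41 to 0.70, adjusted p = 0.989). Median genes differed by 0.17 (-0.15 to 0.48, adjusted p = 0.923) and 0.03 (-0.28 to 0.35, adjusted p = 0.996), and by 0.14 (-0.31 to 0.58, adjusted p = 0.995) between the 2. The UMIs were higher in cKO than in WT in both sexes, 1.10-fold in males and 1.19-fold in females. Without the male VGlut2 cKO library the log2 difference was 0.31. That value rests on the female cKO library alone, the deepest VGlut2 library over all nuclei. The median UMIs over all nuclei of a library moved with those of VLMC-Pia in part, at 1500 and 1613 in the male and female WT libraries against 1343 and 1876 in those of cKO. In these contrasts limma called 0% of 15 classes, with 0 at an unadjusted p under 0.05. Limma used 1 spread for all classes in the fits of the share of vascular and leptomeningeal nuclei, UMIs, genes and mitochondrial share. It did so in every fit of sex too, so these intervals do not rest on the spread of VLMC-Pia alone.

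Between the models VLMC-Pia nuclei were deeper in Ip3r2, with 3028 ± 150 UMIs against 2311.5 ± 260 in VGlut2 libraries and 1609 ± 47.1 genes against 1298.5 ± 132 (SD, n = 4), with no overlap. The limma log2 differences were 0.39 for UMIs (0.12 to 0.67, adjusted p = 0.00903) and 0.31 for genes (0.09 to 0.54, adjusted p = 0.0106). These were not particular to VLMC-Pia, since limma called 93.3% of the 15 classes in both measures, the exception being NeuronLike-Gad1 with log2 differences of -0.010 and 0.031. Relative to the median of all nuclei of the same library the VLMC-Pia difference was -0.0049 for UMIs and -0.0041 for genes. Without the female Ip3r2 WT library the adjusted p was 0.0600 for UMIs and 0.0525 for genes, and without the male Ip3r2 KO library it was 0.0522 for genes.

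The mitochondrial share of UMIs, often read as cytoplasmic RNA carried along with nuclei, lay between 3.85% and 4.17% for VLMC-Pia in all libraries. Summed over nuclei it was 3.87% and 3.94% in the male and female VGlut2 WT libraries and 4.15% and 4.01% in those of VGlut2 cKO. It was 4.15% and 3.85% in the male and female Ip3r2 WT libraries and 3.93% and 4.17% in those of Ip3r2 KO. The WT and mutant libraries did not overlap in VGlut2 and overlapped in Ip3r2, and the log2 differences were 0.06 (-0.03 to 0.15, limma adjusted p = 0.973) and 0.02 (-0.07 to 0.11, adjusted p = 0.954). The VGlut2 WT and cKO libraries did not overlap in NeuronLike-Gad1 either, and such separation was not counted over all classes. The models had 4.03% ± 0.159 and 3.99% ± 0.118 (SD, n = 4), a log2 difference of 0.01 (-0.05 to 0.07, limma adjusted p = 0.864). In all of these contrasts limma called 0% of 15 classes, with 0 at an unadjusted p under 0.05 for the mutations and 2 between the models. Within libraries VLMC-Pia was lower than VLMC-Slc16a11 in 8 of 8, at 4.01% ± 0.131 against 4.21% ± 0.109 (0.951-fold, p = 0.00781, adjusted p = 0.00868, exact sign-flip test), and lower than VLMC-Col15a1 in 6 of 8, at 4.09% ± 0.0624 (p = 0.117, exact sign-flip test). In the order of 15 classes VLMC-Pia stood ninth, between VLMC-Col15a1 and PC, which had 3.98% ± 0.119 and was below VLMC-Pia in 6 of 8 libraries.

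Sex made no difference to VLMC-Pia past the test. The female minus male log2 difference was -0.21 for the share of nuclei (-0.69 to 0.28, limma adjusted p = 0.622) and -0.14 for the share of vascular and leptomeningeal nuclei (-0.54 to 0.27, adjusted p = 0.562). It was 0.14 for UMIs (-0.11 to 0.39, adjusted p = 0.555), 0.12 for genes (-0.09 to 0.32, adjusted p = 0.743) and -0.01 for the mitochondrial share (-0.07 to 0.04, adjusted p = 0.853). Limma called 6.67% of the 15 classes for UMIs and for genes, in each case 1 class, NeuronLike-Gad1, and 0% for the other measures, with 2, 0 and 2 classes at an unadjusted p under 0.05 for the share of nuclei, the vascular share and the mitochondrial share.

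In the deposited maps, which place nuclei of like expression near each other, VLMC-Pia formed an island of its own. Of the 20 nearest neighbours of a VLMC-Pia nucleus in the UMAP, 99.9% were VLMC-Pia, and for 1040 of 1041 nuclei all of them were. The 1 nucleus with mostly other neighbours came from the male Ip3r2 WT library and had 1652 UMIs. In the t-SNE map 99.9% of neighbours were VLMC-Pia as well. Such purity was not particular to VLMC-Pia. In the UMAP, 99.5% of the neighbours of VLMC-Col15a1 nuclei and 99.0% of those of VLMC-Slc16a11 nuclei were of their own class. In the t-SNE map these were 99.3% and 98.3%. Within the island the share of neighbours from the same library was 8.78% to 16.5% in the UMAP and 9.10% to 17.3% in the t-SNE map. These were close to the 7.49% to 16.2% that each library contributed to the class. The study had corrected for differences between libraries before clustering and mapping, so this mixing cannot be read as a trait of VLMC-Pia.

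VLMC-Pia did not adjoin the other VLMC classes on either map. The nearest nuclei of another class were perivascular macrophages (PVM), the macrophages of the vessel wall, for 52.0% of neighbours in the UMAP, EC for 33.3% and NFOL for 14.5%. VLMC-Slc16a11 made up 0.0817% and VLMC-Col15a1 0.0144% of them. By contrast these 2 classes adjoined each other in the UMAP, with 98.8% of the nearest other nuclei of VLMC-Col15a1 being VLMC-Slc16a11 and 95.7% the other way. The rest were VLMC-Pia, at 1.18% for VLMC-Col15a1 and 4.35% for VLMC-Slc16a11. On the t-SNE map 57.8% of the nearest other nuclei of VLMC-Col15a1 were VLMC-Slc16a11, and 100% the other way. The nearest other nuclei of VLMC-Col15a1 there included 19.8% of the astrocyte group Deep-Astro and 15.5% PVM. In the t-SNE map the nearest other nuclei of VLMC-Pia were of the astrocyte group Upper-Astro-1 for 46.4%, M-OPC for 23.3%, OPC for 18.0% and Upper-Astro-2 for 12.3%, so its neighbours depended on the map. Ranked by the distance between class medians in the UMAP, VLMC-Slc16a11 was the twelfth and VLMC-Col15a1 the seventeenth nearest of the other 19 classes to VLMC-Pia, and in the t-SNE map they were the seventeenth and fifteenth. Distances on such maps have arbitrary units, the classes were drawn from the same expression values, and these values are a description with no test.

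**Figure D5:**
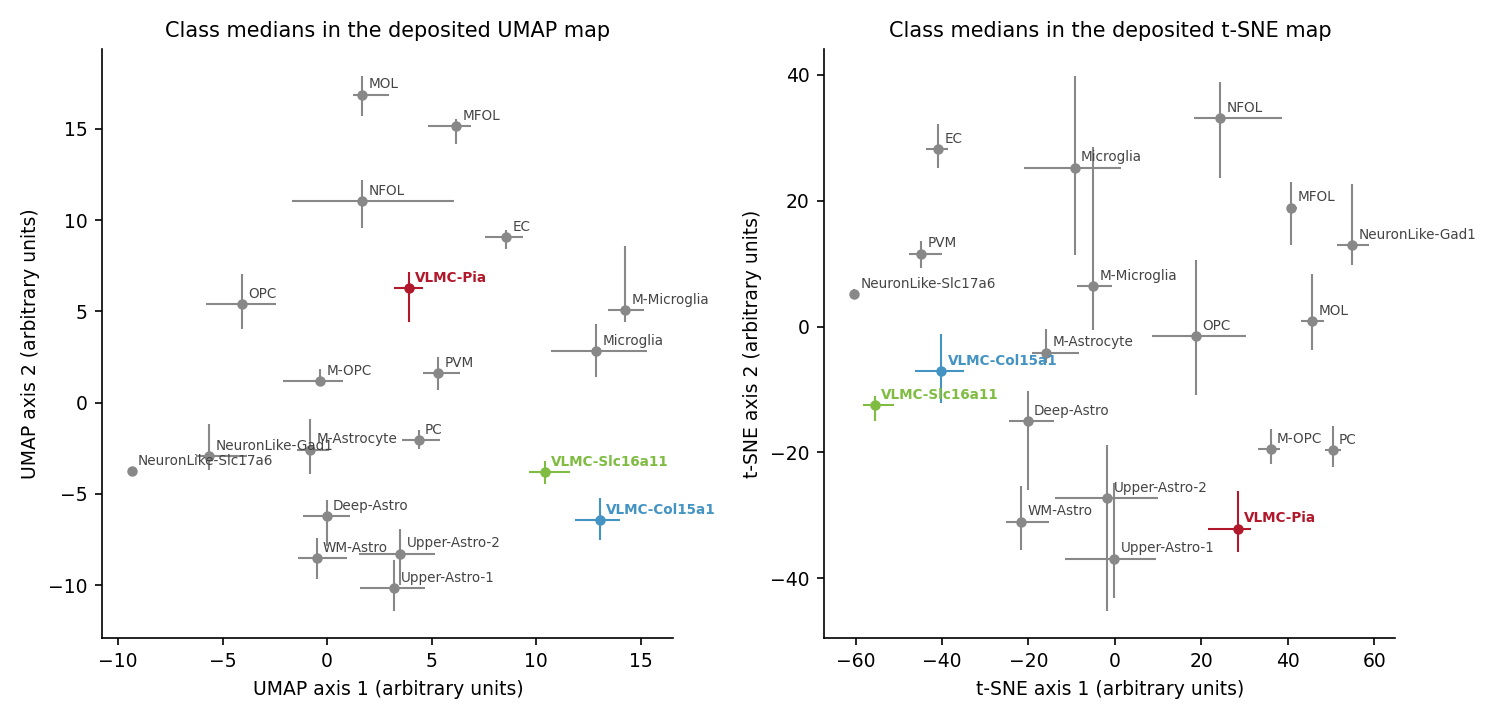
Median position of each class in the deposited UMAP (left) and t-SNE (right) maps, in arbitrary units, with bars from the 10th to the 90th percentile of its nuclei. VLMC-Pia lies apart from VLMC-Col15a1 and VLMC-Slc16a11, which lie next to each other on both maps.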

How the data were processed

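NeuN-negative nuclei were sequenced by 10x Genomics droplet RNA-seq. The authors counted UMIs with Cell Ranger on mm10, discarded barcodes with under 200 genes, removed doublets with Scrublet, integrated the libraries with Scanorama and clustered and named 20 classes with Scanpy. They deposited, per nucleus, whole-number counts of UMIs and of detected genes, and the mitochondrial share as a fraction of UMIs. The deposited map coordinates are in arbitrary units.

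Each library gave 1 value per class. Shares entered limma (3.58.1, R 4.3.3) as log2 odds with 0.5 added to nuclei and 1 to the total, medians as log2, and the mitochondrial percent as log2 after adding 0.01. All 8 libraries were fitted with 1 mean per group and Benjamini-Hochberg adjustment over classes (threshold 0.05, two-sided). Within-library log2 ratios were tested by an exact sign-flip test and their difference between models by exact permutation. Wilson intervals were computed with scipy 1.17.1. Nearest neighbours came from scikit-learn 1.9.0. The limma fit of the share of nuclei was tested on simulated data for VGlut2 cKO minus WT, and the exact tests on cases with known answers. The other fits were not tested in this way. The change simulated in the VLMC-Pia share was larger than the differences seen here, so differences of the observed size were not tested. Alternatives were edgeR (4.0.16) and DESeq2 (1.42.0) on counts of nuclei, a block for the same-sex pair, nuclei with at least 500 genes, library means, a window of 1000 to 2000 UMIs, other denominators and leaving out each library.

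The class and its comparisons were chosen with earlier results of these data known. Classes were named in the text by rule: the VLMC classes, EC and PC, those next to VLMC-Pia in an order, and any past a threshold, except that the classes called between the models are given as a share. The classes nearest to it on the maps, MFOL and NeuronLike-Slc17a6 were named after their values were seen. No gene was named for its level.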

Additional observations from a re-analysis of the deposited data

How the results depend on the processing

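For 45 results 493 alternative values were computed. The within-library comparisons of VLMC-Pia with VLMC-Col15a1 and VLMC-Slc16a11 kept their direction and their side of the threshold under every alternative run, except that the lead in genes over VLMC-Col15a1 at like depth shrank as the report gives. Direction and side of the threshold were kept by 124 of the values from other settings and by 325 of those from leaving out 1 library. Values close to 0 turned sign. On the log2 scale, the Ip3r2 KO minus WT difference in the share of nuclei was -0.0060 with edgeR and -0.0018 with DESeq2. With library means the Ip3r2 KO minus WT difference was -0.00067 in UMIs and -0.0063 in genes. Among nuclei with at least 500 genes the VGlut2 cKO minus WT difference in the vascular share was -0.023, and the difference between models in the ratio of VLMC-Pia to VLMC-Slc16a11 nuclei was -0.0099. Relative to the median of the library, the difference between models was -0.0049 in UMIs and -0.0041 in genes. For the difference between models in the share of nuclei, 0.63, an exact permutation test of the libraries was added after they were seen not to overlap. Without overlap it can only give its smallest p, 0.0286, so it adds no support beside the limma adjusted p of 0.106. Leaving out 1 library at a time moved the share of nuclei from -0.21 to 0.40 for VGlut2 cKO minus WT, from -0.14 to 0.15 for Ip3r2 KO minus WT and from -0.21 to 0.40 for their difference. The vascular share moved from -0.24 to 0.32, from -0.54 to 0.048 and from -0.0085 to 0.58 in the same order, and from -0.38 to 0.0042 for female minus male. UMIs moved from 0.070 to 0.31 for VGlut2 and from -0.030 to 0.13 for Ip3r2, and genes from -0.014 to 0.078 for Ip3r2. Between the models UMIs moved from 0.33 to 0.46 and genes from 0.26 to 0.37, and the libraries that decided these calls are named in the report. The mitochondrial share moved from -0.035 to 0.073 for Ip3r2, from -0.011 to 0.097 for the difference of differences, from -0.015 to 0.039 between models and from -0.044 to 0.020 between sexes. Differences between models in within-library ratios moved from -0.022 to 0.24 for nuclei and from -0.0088 to 0.035 for the mitochondrial percent against VLMC-Col15a1, and from -0.093 to 0.15 for nuclei and from -0.0019 to 0.043 for genes in the window against VLMC-Slc16a11. The cause was not tested. Where 1 library was left out of a group, the lone library was assumed to vary like the others. The block for same-sex pairs changed no call. The correlation across libraries and its alternative were not computed, since the libraries separate by model and each model has 4. Each exact test of 4 against 4 libraries could reach no p below 0.0286, and counting error covers 78 to 169 VLMC-Pia nuclei per library. The female VGlut2 WT library, with 78 nuclei, is the thinnest.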
